A study of Mus musculus with 12 samples.

Results

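Resting B cells (RB cells) that had been given an antibody to CD40 together with the TLR2 ligand Pam2csk4 were compared with RB cells left without stimulus, on 4 of the 12 arrays of the study. The members were chosen by label alone: 2 arrays carry the treatment anti-CD40 and Pam2csk4 (called TLR2.CD40 here) and 2 carry the treatment none (unstimulated). The study took RB cells from the spleen of BALB/c mice, labelled as females of 6 weeks, and measured gene expression at 4 h in 6 conditions, which also include Pam2CSK4 alone, an antibody to CD86 alone, anti-CD40 alone, and Pam2CSK4 with anti-CD86. Each condition has 2 arrays. The labels give culture in RPMI 1640 with 10% FCS for the stimulated samples. The labels give 4 h for the unstimulated samples too and the methods name cells alone among the controls of the experiments, but neither states the medium of these samples in so many words. All samples share the isolation, in which spleen cells bearing CD43 were removed with beads so that the small B cells that do not carry it remained. The anti-CD40 of the methods is the biotinylated clone 3/23, and its dose is not given in the sources used here. All 4 arrays of the comparison lie on slide 1 and were read in the same scan. The study calls its array replicates biological. However, neither it nor the labels say whether the 2 samples of a condition came from separate animals or cultures. The p-values therefore measure only the spread between samples within a condition, pooled over all 12 arrays. Part of that spread may be technical, and in the other conditions it includes the difference between slide 1 and slide 2.

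CD40 is a receptor of the TNF receptor family through which T cells carrying CD40 ligand activate B cells, and it signals through TRAF adaptors to both the canonical and the alternative NF-kB pathways. TLR2 pairs with TLR6 or TLR1 to detect bacterial lipopeptides, of which Pam2CSK4 is a synthetic mimic, and signals through MYD88, IRAK kinases and TRAF6 to canonical NF-kB and MAP kinases. In B cells these signals are known to induce survival proteins of the BCL2 family, activation antigens, chemokine receptors and MYC, and to bring small resting cells into growth.

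The arrays were one-colour mouse arrays, and a level is the log2 signal of a probe minus the 75th percentile of its own array, so that 0 is the level of that percentile and negative levels are dimmer. On the 4 arrays 46.57 to 50.55% of the non-control spots were well above background. The median absolute difference between the 2 arrays of a condition was 0.0633 for TLR2.CD40 and 0.0517 for unstimulated cells over 15196 bright probes, against 0.178 to 0.301 for the other 4 conditions, whose second array lies on slide 2. All 13 B cell markers were well above background on every array, with a log2 summed level of 8.97 to 9.12 on the TLR2.CD40 arrays and 8.82 to 8.90 on the unstimulated arrays. Markers of myeloid cells were also present: the 18 genes had a log2 summed level of 9.22 to 9.34 on the TLR2.CD40 arrays and 9.43 to 9.49 on the unstimulated arrays. The 17 T and NK cell markers summed to 5.69 and to 5.84 to 5.86. Of 7 red cell markers 5 were well above background on each array, and the 7 summed to 6.72 to 6.73 and to 6.45 to 6.46. Cd79b and S100a9, the brightest members of the B cell and myeloid lists, were saturated on all 4 arrays. Small differences between the conditions in the B cell and myeloid sums therefore cannot be read.

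The TLR2.CD40 arrays stood apart from all other arrays in transcripts of the liver. Of 42 genes of hepatocytes and plasma proteins, 34 to 37 were well above background on the unstimulated arrays, 31 to 36 on the 8 arrays of the other 4 conditions, and 10 to 14 on the TLR2.CD40 arrays. Their log2 summed level was 6.42 to 6.43, 5.31 to 5.91 and 2.5 to 2.51, respectively. Albumin (Alb) had levels of 2.20 and 2.16 on the unstimulated arrays and of -2.47 and -3.47 on the TLR2.CD40 arrays. Both arrays of each condition are alike in this, so that leaving out an array cannot remove it, and its part in the results below was not tested. A second measure went against a label: the Y-linked genes Ddx3y (levels 2.56 to 2.90) and Eif2s3y (2.73 to 3.26) were well above background on all 12 arrays, whereas the brightest Xist probe was well above background on none.

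**Figure D1:**
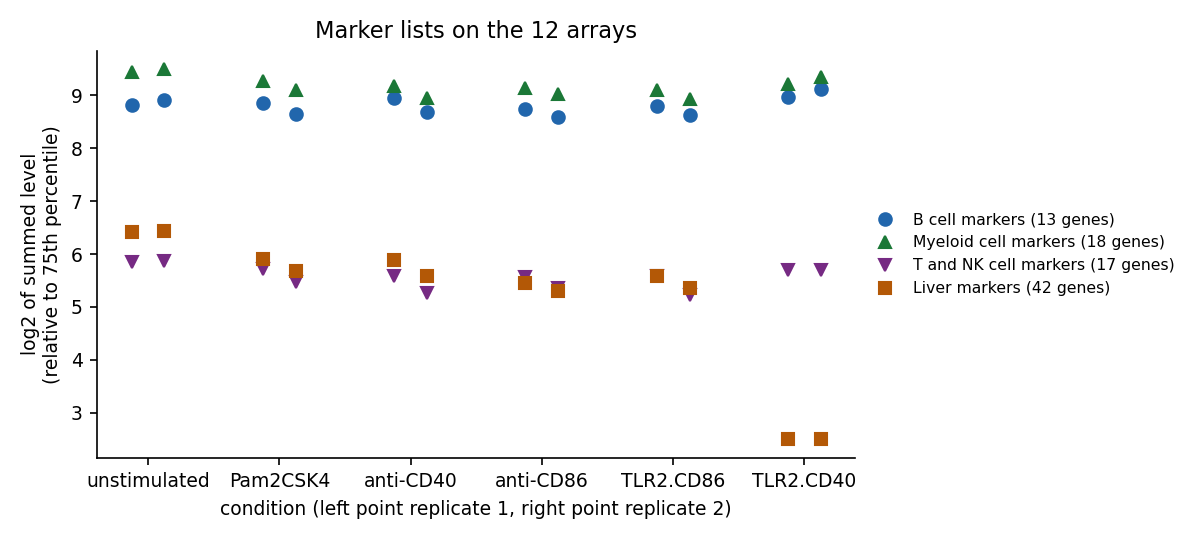
Log2 of the summed level of 4 marker lists (vertical axis, relative to each array's 75th percentile) on the 12 arrays, grouped by condition along the horizontal axis, with one point for each array. The liver list lies at 2.5 and 2.51 on the TLR2.CD40 arrays and between 5.31 and 6.43 on the other 10 arrays. The B cell list lies between 8.59 and 9.12 throughout. Its brightest probe (Cd79b) and that of the myeloid list (S100a9) were saturated on all TLR2.CD40 and unstimulated arrays.

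Against unstimulated cells, 6140 of 29162 probes tested (21.1%) passed the test, which was limma over all 12 arrays at an adjusted p below 0.05. TLR2.CD40 was higher for 2855 (9.79%) and lower for 3285 (11.3%) of these probes. Taken as 1 probe per gene, 3638 of 15893 genes passed (22.9%). Of all genes, 1298 were higher (8.17%) and 2340 were lower (14.7%), and 474 (2.98%) and 475 (2.99%) of these changed at least 2-fold. At least 2-fold changes were found for 1689 probes (5.79%), 1010 higher (3.46%) and 679 lower (2.33%). The arrays of the conditions did not overlap for 34.3% of all genes with TLR2.CD40 above and for 48% with TLR2.CD40 below, so that separation of 2 arrays from 2 is common here and by itself says little. The median log2 fold change over all genes was -0.09. Leaving out any 1 of the 4 arrays lowered the number of called probes to between 2341 and 2669, and centring each array on its median lowered it to 528. Median centring moved the median log2 fold change of all probes by -0.109. The median intensity was 17.34 to 23.57 on the slide 1 arrays and 31.01 to 51.26 on the slide 2 arrays. On the 4 arrays the lowest signals well above background were 19.49 to 26.7, so the median lies near background. How much the slide difference in the median widened the pooled spread was not tested. Without the 43 tested probes of the listed liver genes 6100 probes passed, 3245 of them lower. That list is not complete. The major urinary protein genes Mup-ps11 and Mup-ps2, 31.2-fold and 28.6-fold lower, lie outside it and stay in these counts. Among the 7275 tested probes for noncoding RNAs 1151 passed (15.8%), with 891 higher (12.2%), 260 lower (3.57%) and a median log2 fold change of 0.21. Leaving out any 1 of the 4 arrays lowered that count to between 452 and 517, and median centring lowered it to 131 and the median to 0.10. Since bulk RNA was measured, fewer cells of a type and less RNA per cell cannot be told apart.

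**Figure D2:**
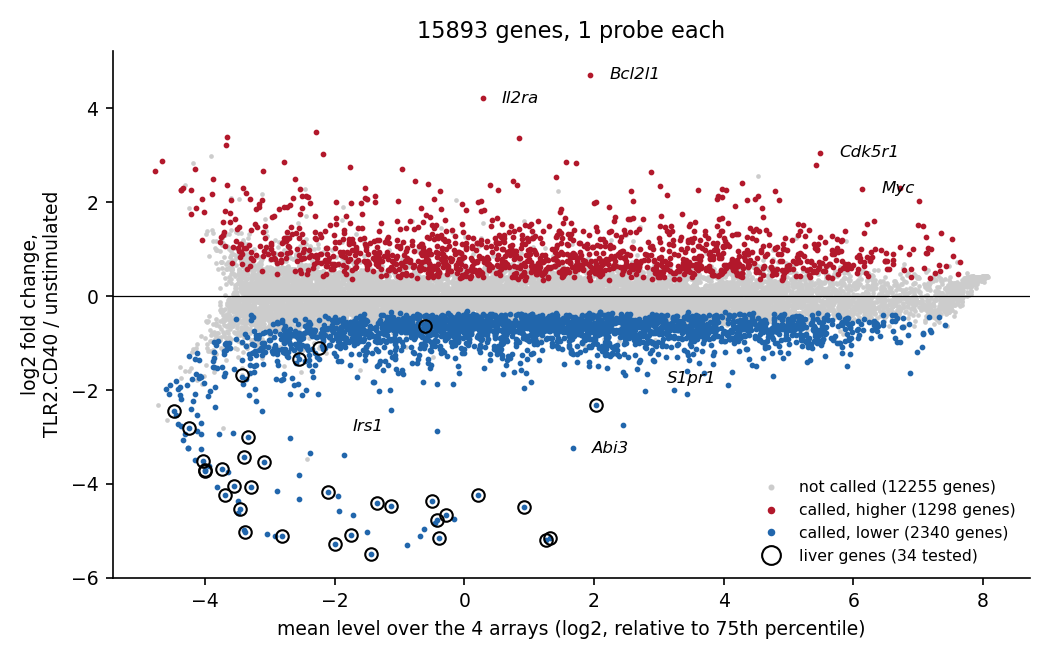
Log2 fold change of TLR2.CD40 over unstimulated (vertical axis) against the mean level over the 4 arrays (horizontal axis, log2 relative to the 75th percentile), with one point per gene. Red and blue points are the 1298 higher and 2340 lower genes, and black circles mark the 34 liver genes tested, of which 32 were lower.

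Genes were then read by role in 20 lists. The members were chosen with earlier results of these data known. Shares called in these lists therefore describe the members chosen and are no test. Of 451 tested members 122 were higher and 62 lower, against 8.17% and 14.7% of all genes. The lower share is thus near that of all genes. These counts rested on all 4 arrays: 88 to 94 members passed when 1 array was left out and 21 under median centring. With slide as a block 322 members passed, and with the 4 arrays alone 297. Failing the test therefore does not show that a gene was unchanged. In 11 list members, among them Nfkbia, Cd83, Cd79b and Cd74, the probe was saturated on all 4 arrays, so that no comparison can be read from it.

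**Figure D3:**
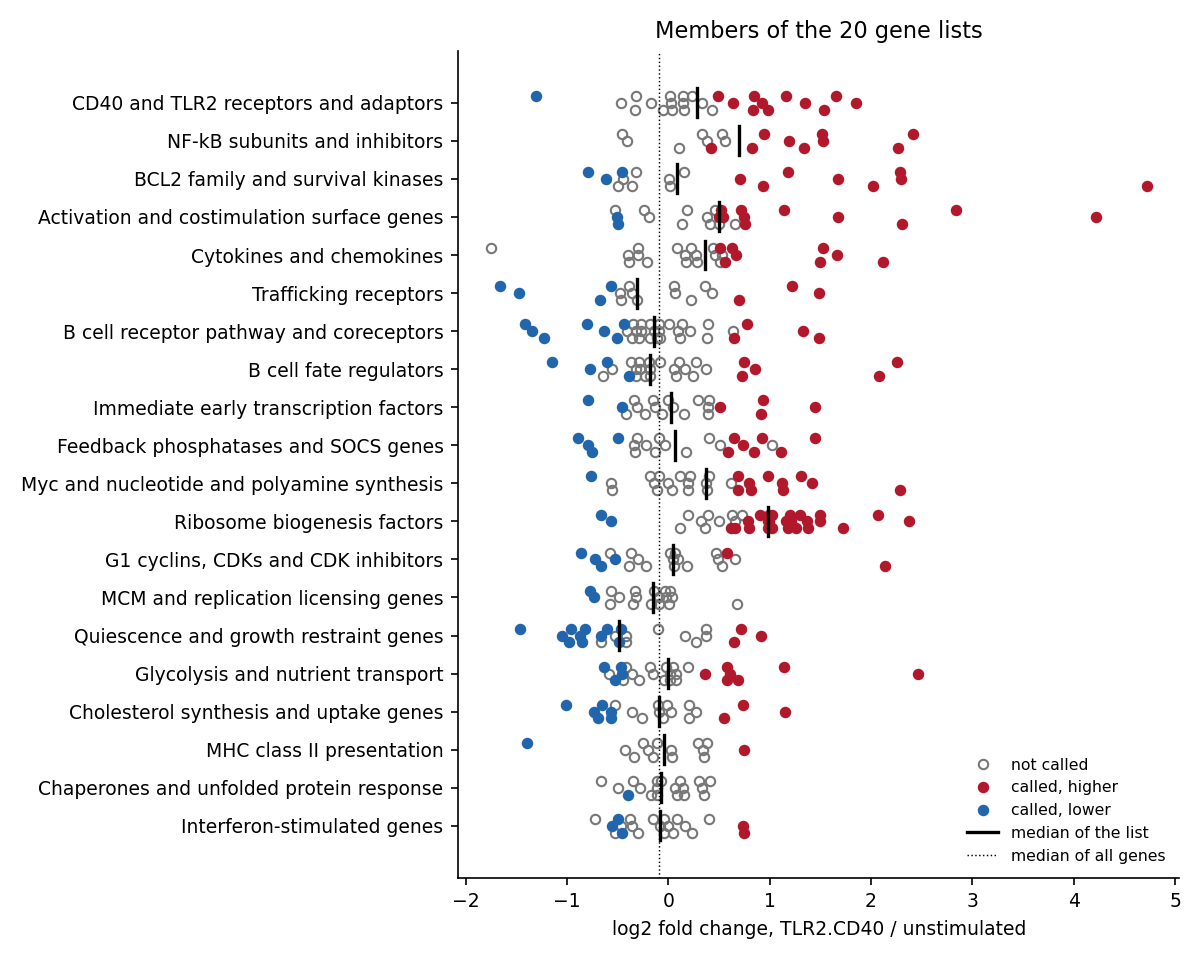
Log2 fold change of TLR2.CD40 over unstimulated for each tested member of the 20 gene lists (one row per list), with filled points for members that passed the test (red higher, blue lower), open points for those that did not, a bar at the median of each list and a dotted line at the median of all genes, -0.09. The ribosome biogenesis factors lie farthest to the right, with a median of 0.98, and the quiescence genes farthest to the left, with a median of -0.49.

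Receptors and adaptors of the 2 pathways rose more often than they fell. Of 26 genes, 11 were higher and 1 was lower, with a median log2 fold change of 0.28, where 8.17% of all genes were higher. Without 1 array in turn 8 remained higher, and 1 under median centring. Cd40, the receptor itself, had levels of 4.22 and 4.29 on the TLR2.CD40 arrays and 2.71 and 2.72 on the unstimulated arrays. The stimulated arrays were both above the unstimulated ones, by 1.54 on the log2 scale (SE 0.24, 2.90-fold, adjusted p = 0.00353). Tlr1, which encodes a partner of TLR2, had levels of 2.34 and 2.49 against 0.59 and 0.54, a 3.61-fold difference (adjusted p = 0.000181). Tlr2 did not pass the test, with levels of 2.70 and 2.71 against 2.52 and 2.60, nor did Tlr6, with a log2 fold change of 0.43. Among the adaptors that carry the CD40 signal, Traf1 rose 3.14-fold, from 3.09 and 3.11 to 4.69 and 4.81, and Traf5 fell by 1.31 on the log2 scale, from 5.23 and 5.30 to 3.85 and 4.05. The ubiquitin ligases Birc3 and Birc2, which bind TRAF proteins, were 2.56-fold and 1.97-fold higher, Traf6 1.89-fold, Traf3 1.79-fold and the kinase of the alternative pathway Map3k14 1.56-fold. In the TLR arm, the adaptor Myd88 was 1.40-fold higher (adjusted p = 0.0428), a call that was lost when an array was left out. The IRAK4 kinase gene (Irak4) was 2.23-fold higher by its brightest probe, which was well above background on both stimulated arrays and on 1 unstimulated array, while its other tested probe had a log2 fold change of -0.37.

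Genes of NF-kB itself had a median of 0.70, exceeded among the lists by that of the ribosome biogenesis factors alone. Over all genes 8.17% were higher and 14.7% lower. Of 16 members 9 were higher and none was lower (6 higher without 1 array in turn, 2 under median centring). The precursor subunits Nfkb1 and Nfkb2 stood at 8.00 and 8.06 and at 5.64 and 5.67 on the TLR2.CD40 arrays, against 6.65 and 6.73 and 4.49 and 4.44 on the unstimulated arrays, which is 2.53-fold and 2.28-fold higher; Nfkb1 was saturated on 1 stimulated array. Among the transactivating subunits, Rela was 1.78-fold higher (adjusted p = 0.0281) and Rel 1.34-fold (adjusted p = 0.0497), whereas Relb did not pass the test at a log2 fold change of 0.56. Some inhibitors of NF-kB, which the pathway itself induces, rose as well. Nfkbiz, an atypical nuclear inhibitor that also activates secondary response genes, had levels of 5.52 and 5.47 against 3.11 and 3.06 (5.30-fold, adjusted p = 3.65e-05), and Nfkbid had 4.75 and 4.73 against 2.45 and 2.5 (4.81-fold, adjusted p = 0.000644). The cytoplasmic inhibitors Nfkbie and Nfkbib were 2.88-fold and 2.86-fold higher, and Tnfaip3, which encodes the ubiquitin-editing enzyme A20, was 1.92-fold higher. Stimulated and unstimulated arrays did not overlap for any of these. Other negative regulators did not pass the test: Bcl3, Tnip1 and Tnip2 had log2 fold changes of 0.33, 0.53 and 0.11, and Cyld, a deubiquitinase that opposes the pathway, had -0.46. Nfkbia, saturated on all 4 arrays, could not be compared.

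The promoters of the same list were read on either strand for the NF-kB consensus word, a motif of 10 bases with 2 free positions, since CD40 and TLR2 both act through NF-kB. In RefSeq promoters of 300 bases (GRCm38.p6, 250 before to 50 after a start), 13 of the 16 members were represented by 18 promoters, of which 9 held the word (50%), against 1.39% of the promoters of all genes tested, 3.69% of those of genes higher by at least 2-fold, 0.959% of those lower by at least 2-fold and 1.20% of the whole table. By gene, the word was in 3 of 7 members that rose and in 4 of 6 that did not pass the test, which is a description of these windows and not of binding. Stretches around the word, in capitals, are shown for 3 genes that rose and for Nfkbia, whose probe was saturated, each written 5′ to 3′ on the strand of the gene.
Nfkb2, chr19:46304668-46304736, plus strand, word 39 bases before the start: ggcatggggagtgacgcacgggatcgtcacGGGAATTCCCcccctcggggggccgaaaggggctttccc
Rel, chr11:23771022-23771091, minus strand, word 92 bases before the start: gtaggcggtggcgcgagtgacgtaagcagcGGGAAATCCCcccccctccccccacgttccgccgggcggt
Nfkbid, chr7:30422156-30422219, plus strand, word 226 bases before the start: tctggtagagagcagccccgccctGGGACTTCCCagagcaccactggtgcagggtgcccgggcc
Nfkbia, chr12:55492648-55492706, minus strand, word 29 bases before the start: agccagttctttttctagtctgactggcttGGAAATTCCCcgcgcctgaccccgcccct

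Survival genes held the largest single rise of the comparison. Bcl2l1, which encodes the antiapoptotic protein BCL-XL, had levels of 4.39 and 4.22 on the TLR2.CD40 arrays and -0.35 and -0.48 on the unstimulated arrays, a 26.4-fold difference (log2 4.72, SE 0.13, adjusted p = 4.06e-07), and its other 2 tested probes gave 3.61 and 4.64 on the log2 scale. In the whole list of BCL2 family genes and PIM kinases, 8 of 18 tested members were higher and 3 lower, with a median of 0.09 (6 to 7 higher and 0 to 1 lower without 1 array in turn, 4 and 0 under median centring). Probes listed for Bcl2a1b and Bcl2a1a, near-identical antiapoptotic genes whose signals cannot be fully separated, were 4.92-fold and 4.05-fold higher, that of Bcl2a1a with saturation on 1 stimulated array. All 3 PIM kinase genes rose: Pim1 from 2.77 and 2.89 to 5.10 and 5.13 (4.89-fold), Pim2 3.19-fold and Pim3 2.27-fold. The members that fell were proapoptotic and changed less. Over all genes 14.7% were lower, near the share of this list, and 8.17% were higher. Bmf had levels of 2.06 and 2.38 against 2.98 and 3.04 (log2 fold change -0.79, adjusted p = 0.00672), Pmaip1, which encodes NOXA, fell by 0.62 on the log2 scale, and Apaf1, the apoptosome scaffold, fell by 0.46. Direction did not follow function throughout, since the proapoptotic Bid and Bcl2l11 (BIM) were 1.90-fold and 1.63-fold higher. None of these 5 calls held without each of the 4 arrays in turn.

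Surface genes of activated B cells rose in 11 of 23 cases and fell in 2, with a median log2 fold change of 0.50 (4 to 5 and 0 without 1 array in turn, 3 and 0 under median centring). The shares over all genes were 8.17% higher and 14.7% lower. Il2ra, the alpha chain of the IL-2 receptor (CD25), had levels of 2.48 and 2.29 on the TLR2.CD40 arrays and -1.85 and -1.82 on the unstimulated arrays (18.7-fold, adjusted p = 4.86e-07). Icam1, an adhesion molecule that binds LFA-1, had 3.16 and 3.11 against 0.31 and 0.27 (7.18-fold, adjusted p = 3.71e-06). Both pairs of arrays lay far apart for these genes compared with the differences within a pair. Fas, the death receptor known to be induced by CD40, was 3.18-fold higher, at 3.45 and 3.41 against 1.76 on both unstimulated arrays. Tnfsf9 (4-1BB ligand) was well above background on the 2 stimulated arrays only, at least 2.80-fold higher. It entered the test through those arrays alone, and its call was lost with no filter on dim probes, under quantile normalization, and without TLR2.CD40 replicate 1 or unstimulated replicate 2. Slamf1 was 2.20-fold higher, and Slamf7, Il4ra, Cd44 and Cd274 (PD-L1) were 1.68, 1.65, 1.45 and 1.43-fold higher. Icosl and Cd200, which encode a costimulatory and an inhibitory ligand, fell by 0.51 and 0.50 on the log2 scale. The costimulatory ligands Cd80 and Cd86 did not pass the test, at log2 fold changes of 0.46 and 0.41, and the early activation antigen Cd69, at 0.66, did not pass either.

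**Figure D4:**
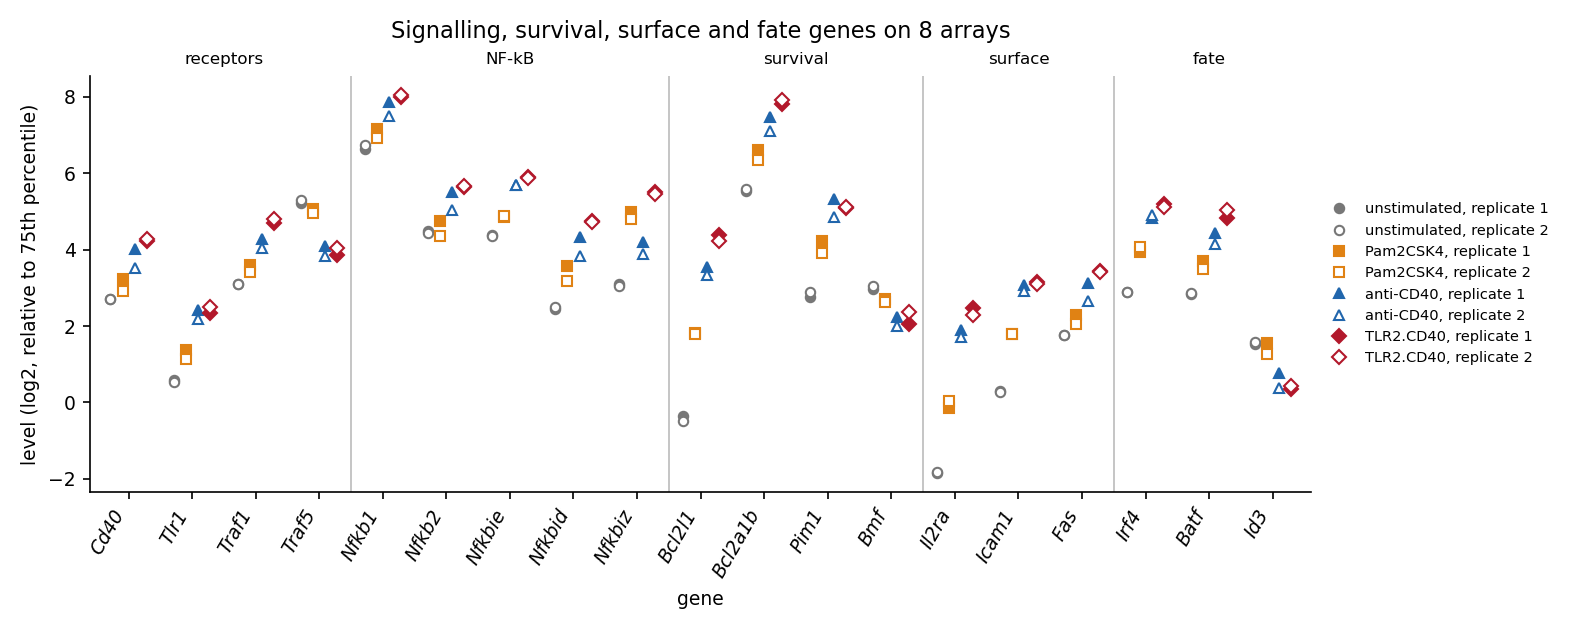
Levels (log2, relative to the 75th percentile of each array) of 19 genes on the arrays of unstimulated, Pam2CSK4, anti-CD40 and TLR2.CD40 cells, with filled symbols for replicate 1 and open symbols for replicate 2. The TLR2.CD40 arrays lie above the unstimulated arrays for 16 of these genes and below them for Traf5, Bmf and Id3.

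Cytokine and chemokine genes moved less, with a median log2 fold change of 0.36 and 8 of 24 tested members higher and none lower (4 without 1 array in turn, 1 higher and 1 lower under median centring). All genes together were higher in 8.17% and lower in 14.7% of cases. Ebi3, a subunit of IL-27 and IL-35, had levels of 5.03 and 5.02 against 2.89 and 2.92 (4.35-fold, adjusted p = 0.00013). Tnf had 2.42 and 2.34 against 0.75 and 0.70 (3.16-fold, adjusted p = 0.00119), and Il12b, the p40 subunit of IL-12, had 1.39 and 1.55 against -0.02 and -0.03 (2.83-fold, adjusted p = 0.000297). Ccl17, a chemokine for T cells that carry CCR4, was dim at -2.23 and -2.69, and on the unstimulated arrays, where it was well above background on 1 of 2, it stood at -3.71 and -4.28 (2.89-fold). Stimulated arrays were the higher ones in each case. Clcf1, Vegfa, Il6 and Il1b were 1.59, 1.54, 1.47 and 1.42-fold higher, and each of these 4 calls was lost when some array was left out. Il10 and Lta did not pass the test, with log2 fold changes of 0.53 and 0.44. Ccl2, a chemokine for monocytes, was above background without stimulus and not with both stimuli, with an adjusted p of 0.0504.

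Receptors that place B cells in lymphoid tissue changed in both directions, 3 of 17 higher and 4 lower, against 8.17% and 14.7% of all genes, with a median of -0.31 (2 and 2 without 1 array in turn, 0 and 1 under median centring). The 2 receptors for follicle and T zone chemokines were higher: Cxcr5 stood at 7.82 on both stimulated arrays against 6.37 and 6.28 (2.82-fold), and Ccr7 at 8.04 and 8.21, saturated on both, against 6.88 and 6.94, at least 2.33-fold. Gpr183 (EBI2), which guides B cells by oxysterols, was 1.63-fold higher. The sphingosine-1-phosphate receptor gene S1pr1, needed for exit from lymphoid organs, had levels of 2.10 and 1.88 against 3.67 and 3.64 (log2 fold change -1.66, adjusted p = 0.000537), and S1pr4 had -1.35 and -1.15 against 0.26 and 0.18 (log2 fold change -1.47, adjusted p = 0.000853). Stimulated arrays thus lay below unstimulated ones for both. Ccr6 and Cxcr4 fell by 0.67 and 0.57 on the log2 scale, calls that were lost when some array was left out.

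Components of B cell receptor signalling were lower in 7 of 33 cases and higher in 4, against 14.7% and 8.17% of all genes, with a median of -0.14, close to that of all genes (4 and 2 to 3 without 1 array in turn, none under median centring). Malt1, the paracaspase that links the receptor to NF-kB, fell from 3.36 and 3.44 to 2.02 and 1.97 (log2 fold change -1.41, adjusted p = 0.000109). The inhibitory Fc receptor Fcgr2b fell from 3.36 and 3.42 to 2.03 and 2.06 (-1.35), and the adaptor Dapp1 from 2.26 and 2.33 to 1.1 and 1.03 (-1.23). Smaller decreases were found for the kinases Btk (-0.80) and Lyn (-0.44), the phosphatase Inpp5d, known as SHIP (-0.63), and Pecam1 (-0.51). Fcer2a (CD23), the low-affinity IgE receptor, rose from 2.28 and 2.26 to 3.78 and 3.74 (2.81-fold, adjusted p = 0.000856), Fcrl5 was 2.52-fold higher at a dim level, the CD81 tetraspanin gene (Cd81) 1.72-fold and the kinase Syk 1.57-fold.

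Transcription factors that set the fate of B cells gave 5 higher and 4 lower of 28, where 8.17% of all genes were higher and 14.7% lower, so that the lower share is near that of all genes, with a median of -0.18 (2 and 1 without 1 array in turn, 2 and 0 under median centring). Irf4, which acts in activation, class switching and plasma cell formation, rose from 2.90 and 2.89 to 5.19 and 5.12 (4.78-fold, adjusted p = 1.03e-05), and Batf, its partner at composite DNA elements, rose from 2.84 and 2.86 to 4.82 and 5.03 (4.22-fold, adjusted p = 7.21e-05). These 2 lay well outside the spread within pairs. Spib, Irf8 and Klf3 were 1.82, 1.69 and 1.66-fold higher. Id3, an inhibitor of E proteins, fell from 1.52 and 1.57 to 0.34 and 0.44 (log2 fold change -1.15, adjusted p = 0.0051), and Bach2, Mef2c and Zbtb32 fell by 0.77, 0.61 and 0.39 on the log2 scale. Xbp1, which drives the secretory programme of plasma cells, did not pass the test, at 2.58 and 2.53 against 3.13 and 3.11 (log2 fold change -0.56).

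Among 20 immediate early transcription factors 4 were higher and 2 lower, against 8.17% and 14.7% of all genes, with a median of 0.02 (2 and 0 to 1 without 1 array in turn, none under median centring). Maff, a small MAF protein, was 2.73-fold higher, at 5.15 and 5.11 against 3.69 and 3.67. Ier5, Klf10 and Jun were 1.90, 1.88 and 1.43-fold higher, and Egr2 and Egr1, targets of B cell receptor and MAP kinase signals, fell by 0.79 and 0.46 on the log2 scale. Of 22 feedback genes 7 were higher and 4 lower, against the same 8.17% and 14.7%, with a median of 0.07 (3 to 4 and 1 to 2 without 1 array in turn, none under median centring). The MAP kinase phosphatase genes Dusp14, Dusp1, Dusp2, Dusp4 and Dusp16 were 2.73, 2.16, 1.80, 1.57 and 1.51-fold higher, with Dusp2 saturated on 1 stimulated array. Dusp6 fell by 0.50 on the log2 scale, and Dusp5 (0.51) and Dusp10 (-0.33) did not pass the test. The cytokine signalling inhibitors split, with Socs2 1.67-fold higher and Socs1 and Socs3 lower by log2 fold changes of -0.89 and -0.79.

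Ribosome biogenesis factors, which process ribosomal RNA and assemble subunits in the nucleolus, were higher in 24 of 35 cases and lower in 2, with a median log2 fold change of 0.98 (20 and 0 without 1 array in turn, 3 and 0 under median centring), where 8.17% of all genes were higher. Rrp1b had levels of 1.57 and 1.58 against -0.84 and -0.74 (5.16-fold, adjusted p = 0.000294), and Nolc1, a nucleolar chaperone of small nucleolar RNPs, had 5.53 and 5.52 against 3.44 and 3.46 (4.2-fold, adjusted p = 0.000436). Grwd1, Rrs1, Nop16, Tsr1 and the RNA polymerase I subunit Polr1b followed at 3.29, 2.83, 2.82, 2.61 and 2.59-fold. The 2 members that fell were Ncl (nucleolin), at 6.44 and 6.4 against 7.08 and 7.09 by its brightest probe, and Gar1, at 0.99 and 1.01 against 1.51 and 1.63. For Ncl the probes disagree, since its other tested probes spanned log2 fold changes of -0.73 to 0.96. Myc, a transcription factor that drives these genes in growing cells, rose from 4.95 and 5.03 to 7.28 and 7.27 (4.90-fold, adjusted p = 0.000154). In its list with enzymes of nucleotide and polyamine synthesis, 10 of 27 were higher and 1 was lower, with a median of 0.37 (4 to 5 and 0 to 1 without 1 array in turn, 1 and 0 under median centring). For all genes the shares were 8.17% higher and 14.7% lower. Ppat, the first step of purine synthesis, was 2.67-fold higher, spermidine synthase (Srm) 2.47-fold, the folate enzymes Shmt1 and Shmt2 2.18-fold each and CTP synthase (Ctps) 1.98-fold. Tyms, which makes thymidylate for DNA, was the member that fell, by 0.76 on the log2 scale. The E-box CACGTG, a palindrome that MYC can bind, was in 6 of 33 promoters of the ribosome list (18.2%), against 9.78% of the promoters of all genes tested, and in 12.3% of those of genes higher by at least 2-fold. These shares describe the windows and not binding, and whether MYC acted on the list was not tested.

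Among cell cycle genes cyclin D2 had the highest rise. Ccnd2, the D-type cyclin that B cells induce on leaving rest, rose from 2.83 and 2.84 to 4.96 and 5.0 (4.4-fold, adjusted p = 0.000781). Of 21 genes of the G1 phase, 2 were higher and 4 lower, near the 8.17% and 14.7% of all genes, with a median of 0.05 (1 and 0 to 1 without 1 array in turn, 1 and 0 under median centring). Cdc25a was the other that rose (1.49-fold), and the CDK inhibitors Cdkn2d and Cdkn1b and the pocket proteins Rbl2 and Rb1, which restrain entry into S phase, fell by 0.86, 0.66, 0.72 and 0.53 on the log2 scale. No MCM or other replication licensing gene of 18 was higher in this test, and Mcm6 and Rfc3 were lower, with log2 fold changes of -0.73 and -0.77, against 8.17% higher and 14.7% lower among all genes. When 1 array was left out 0 to 1 of the 18 passed, and none under median centring.

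Genes associated with quiescence were lower in 11 of 23 cases and higher in 3, with a median of -0.49, where 14.7% of all genes were lower (6 and 0 to 2 without 1 array in turn, none under median centring). Pik3ip1, an inhibitor of PI3 kinase, fell from 5.15 and 5.18 to 3.68 and 3.72 (log2 fold change -1.46, adjusted p = 0.000442). The atypical cyclin Ccng2, a FOXO target, fell from 5.35 and 5.41 to 4.38 and 4.29 (-1.05), and the antiproliferative gene Btg2 from 5.17 and 5.09 to 4.19 and 4.12 (-0.98). Stimulated arrays were below unstimulated ones for all 3. Sesn1, Sesn3, Txnip, Arrdc3, Klf4, Foxo1, Ypel5 and Tsc22d3 made up the rest, with log2 fold changes from -0.96 for Sesn1 to -0.47 for Tsc22d3. Ddit4, an inhibitor of mTORC1 that this list also holds, went the other way, at 5.65 on both stimulated arrays against 4.74 on both unstimulated arrays (1.88-fold), as did Kdm5b (1.65-fold) and Bcl2l13 (1.57-fold).

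Of 26 genes of glycolysis and nutrient uptake, 7 were higher and 4 lower, against 8.17% and 14.7% of all genes, with a median of -0.00 (3 and 0 without 1 array in turn, 1 and 0 under median centring). Slc7a1, a carrier of arginine and lysine, rose from -2.0 and -1.98 to 0.38 and 0.56 (5.49-fold, adjusted p = 0.000143), and Slc7a6 was 2.20-fold higher. Hexokinase was divided by isoform, with Hk2 1.62-fold higher and Hk1 lower by a log2 fold change of -0.63, and the glucose carrier gene Slc2a1 fell by 0.53 on the log2 scale. Cholesterol genes were higher in 3 of 20 cases and lower in 6, with a median of -0.10 (0 and 1 without 1 array in turn, none under median centring): Mvd was 2.21-fold and the regulator Srebf2 1.67-fold higher, while the efflux carriers Abca1 and Abcg1 fell by 1.01 and 0.73. Among 14 genes of MHC class II presentation H2-DMa was 1.69-fold higher, and the ubiquitin ligase gene March1, listed on the array as NM_175188, fell from 3.59 and 3.64 to 2.25 and 2.20 (log2 fold change -1.39, adjusted p = 0.00231). MARCH1 is known to remove MHC class II and CD86 from the surface. The counts of the cholesterol, MHC class II and chaperone lists also stand against 8.17% higher and 14.7% lower over all genes. One of 19 chaperone and unfolded protein response genes passed the test, Herpud1 with a log2 fold change of -0.40, and of 21 interferon-stimulated genes 2 were higher, Irf1 (1.68-fold) and Usp18 (1.67-fold), and 3 lower, Stat2, Ifit3 and Oas2 (log2 fold changes of -0.56, -0.50 and -0.46), near the 8.17% and 14.7% of all genes. Of the calls in these last 3 lists, that of March1 alone held when an array was left out.

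Ranked over all genes with unsaturated probes above background on the 4 arrays, the highest after Bcl2l1 and Il2ra was Zbtb46, a zinc finger repressor known from dendritic cells, at 2.57 and 2.48 against -0.84 and -0.86 (10.4-fold). The probe listed as Btbd4, which RefSeq gives as the same gene, was 6.57-fold higher. Cdk5r1, the activator p35 of CDK5, had 6.98 and 7.06 against 3.92 and 4.00 (8.37-fold). Sema7a, a membrane-bound semaphorin, was 6.90-fold higher, Mfsd2 (now Mfsd2a, a lipid carrier) 7.19-fold, the potassium channel gene Kcnj14 6.77-fold, Plagl2 6.29-fold and Gm12581 (now Tmem235) 5.76-fold. Of 15893 genes, 87 were well above background on both stimulated arrays and neither unstimulated one, and 285 the other way round. The 87 entered the test through the stimulated arrays alone. Among them Fam154b was at least 5.36-fold higher and Cox4i2, a subunit isoform of cytochrome c oxidase, at least 3.30-fold.

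The lowest genes were those of the liver: 32 of 34 tested liver genes were lower, 31 of them at least 2-fold, with a median log2 fold change of -4.2. Major urinary proteins led, with Mup1 at -1.3 and -1.38 against 3.82 and 3.87 (log2 fold change -5.19), although members of that family share sequence and their probes cannot be told apart. Fabp1 and Ahsg, a fatty acid binding protein and a plasma protein of hepatocytes, fell by 4.77 and 4.24. Apoa2, at background with both stimuli, was at least 29.4-fold lower. Outside the liver genes, Abi3, an adaptor of the WAVE complex found in blood cells, had levels of 0.10 and 0.01 against 3.31 and 3.27 (log2 fold change -3.24), and Irs1, the insulin receptor substrate, had -1.87 and -1.85 against 1.03 and 0.99 (-2.87). Without the liver list 2308 genes were lower, 444 of them at least 2-fold. Both counts still hold major urinary protein genes outside the list, such as Mup-ps11. Myeloid markers had a median of -0.49, against medians of -0.25 with Pam2CSK4 alone and -0.34 with anti-CD40 alone over unstimulated cells. With both stimuli 8 of 18 were lower, where 14.7% of all genes were lower. The 8 included Itgam (-0.81), Csf1r (-0.71) and Elane, listed as Ela2 (-1.20). None of the 18 was higher, although the other tested probes of Itgam and Csf1r gave 0.33 and -0.03. What part these cells had in the quiescence, cytokine and surface lists was not tested.

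Each stimulus was also given alone, and the TLR2.CD40 arrays were tested against each. These comparisons share the TLR2.CD40 arrays, and the changes against unstimulated cells share the unstimulated arrays. One of the 2 arrays of each single stimulus lies on slide 2, and the single-stimulus arrays carry the liver transcripts. Against Pam2CSK4 alone 1226 genes were higher (7.71%) and 737 lower (4.64%), and against anti-CD40 alone 200 were higher (1.26%) and 248 lower (1.56%). With slide as a block the totals were 6115 genes (38.5%) in place of 1963 (12.4%), and 2879 (18.1%) in place of 448 (2.82%). By probe, the 3463 (11.9%) and 944 (3.24%) calls became 932 to 2035 and 294 to 1364 when 1 array of the 2 conditions compared was left out.

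In the receptor list 10 of 26 members differed from Pam2CSK4 alone and 0 from anti-CD40 alone, in the NF-kB list 7 and 1 of 16, and in the ribosome list 27 and 4 of 35. Of all genes 12.4% differed from Pam2CSK4 alone and 2.82% from anti-CD40 alone. The 0 of 26 and 1 of 16 are thus near the share of all genes. Bcl2l1, at 4.39 and 4.22 with both, stood at 1.82 and 1.78 with Pam2CSK4 and at 3.54 and 3.34 with anti-CD40. It differed from both, by 2.51 (adjusted p = 2.76e-05) and by 0.87 (adjusted p = 0.0111) on the log2 scale. Il2ra stood at -0.15 and 0.03 with Pam2CSK4 and at 1.89 and 1.72 with anti-CD40, which is 2.45 (adjusted p = 2.31e-05) and 0.59 (adjusted p = 0.0435) below the level with both. Myc (5.96 and 5.68, then 6.78 and 6.39), Nolc1 and Cd40 differed from Pam2CSK4, and their differences from anti-CD40 did not pass the test except with slide as a block. Ccnd2, Icam1, Pim1 and Tlr1 differed from anti-CD40 by 0.20, 0.15, 0.02 and 0.12 on the log2 scale, and these did not pass the test with or without that block.

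Cytokine genes had the reverse order. In their list 8 of 24 members differed from anti-CD40 alone, against 2.82% of all genes, and all 8 were higher with both stimuli. From Pam2CSK4 alone 3 differed, near the 12.4% of all genes. Il12b had levels of 1.82 and 1.69 with Pam2CSK4 and -0.72 and -0.81 with anti-CD40. With both stimuli it was 2.24 above anti-CD40 on the log2 scale (SE 0.13, adjusted p = 5.33e-05) and -0.28 from Pam2CSK4 (adjusted p = 0.204, and 0.011 with slide as a block). Tnf (2.09 and 1.80 with Pam2CSK4, 1.22 and 0.80 with anti-CD40), Il1b, Il6, Ccl17, Ccl3, Cxcl10 and Cxcl16 were the others, with differences from anti-CD40 of 1.37, 0.90, 0.98, 1.47, 0.56, 0.87 and 0.70. Nfkbiz belonged with these genes, at 4.99 and 4.81 with Pam2CSK4 and 4.2 and 3.90 with anti-CD40, and its level with both was 0.59 (adjusted p = 0.0305) and 1.45 (adjusted p = 0.00112) higher. Ebi3 went with the first group, at 3.68 and 3.49 and at 4.61 and 4.26.

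Some genes, picked here after their values were seen, differed from both single stimuli. Plagl2 stood at 4.2 and 4.22 with both stimuli, 2.21 and 1.90 with Pam2CSK4 and 1.93 and 1.72 with anti-CD40, against 1.58 and 1.53 without stimulus. Slc7a1, at 0.38 and 0.56 with both, stood at -1.45 and -1.61 with Pam2CSK4 and at -2.93 and -2.36 with anti-CD40 (differences 2.0 and 3.12, adjusted p = 0.000725 and 5.85e-05). The nucleolar chaperone Npm3 was 1.36 and 1.42 higher than with either alone. Abi3 was lower than with either (log2 differences of -2.88 and -1.86, adjusted p = 0.000108 and 0.00153), and Pik3ip1 differed by -1.11 and -0.88. Whether these exceed the sum of both single effects was not tested, and the TLR2.CD40 arrays differ in the liver transcripts from both sets of arrays used here.

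**Figure D5:**
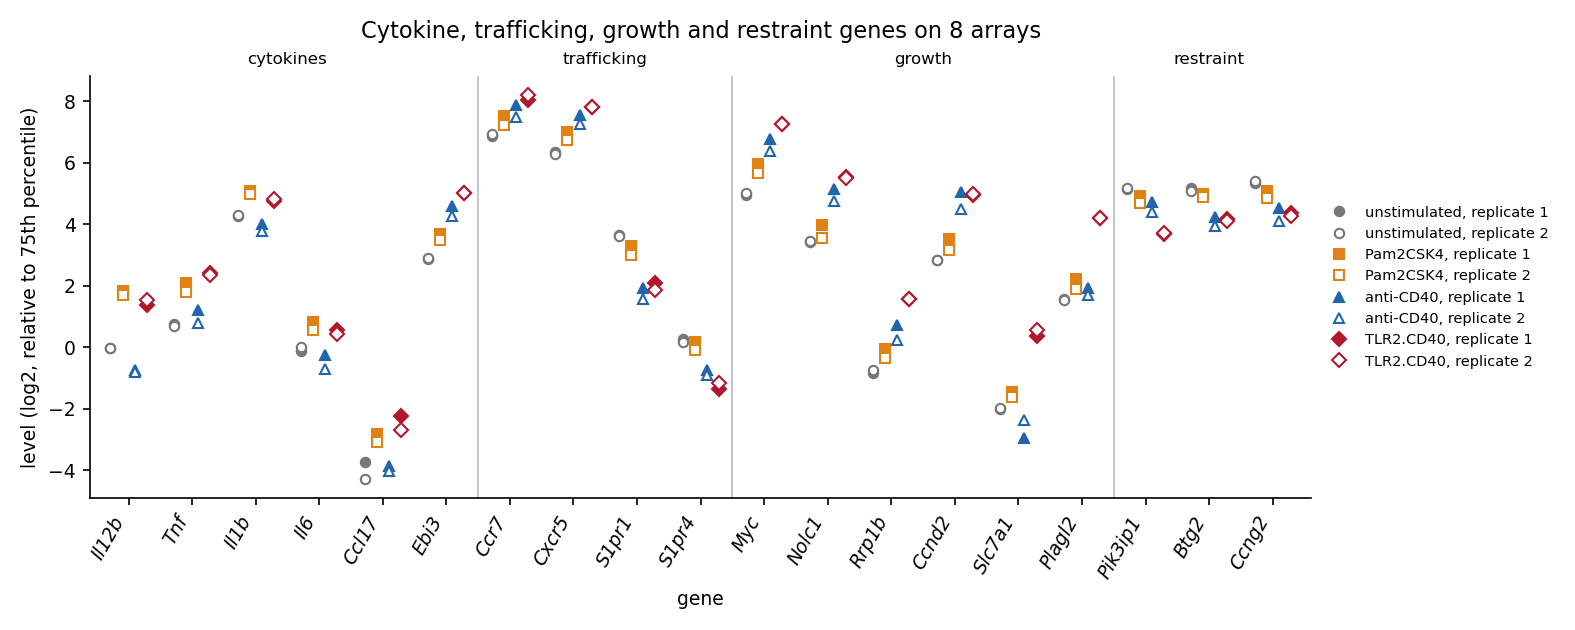
Levels (log2, relative to the 75th percentile of each array) of 19 cytokine, trafficking, growth and growth restraint genes on 8 arrays, with filled symbols for replicate 1 and open symbols for replicate 2. For Il12b, Il1b and Il6 the TLR2.CD40 arrays lie beside the Pam2CSK4 arrays or nearer to them than to the anti-CD40 arrays, for Ccnd2 and S1pr1 beside the anti-CD40 arrays, and for Plagl2 and Slc7a1 above all other arrays shown.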

How the data were processed

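RNA of RB cells was labelled with Cy3 and hybridised to one-colour Agilent arrays (8x60k, custom mouse design). The deposited scanner files hold the processed intensity of each spot, which the authors' scanner software had corrected for background. The authors' deposited table of log2 values equals those intensities on the log2 scale minus a constant for each array. Here the log2 intensity was averaged over spots of a probe, without controls or outlier spots, and centred on each array's 75th percentile. From 61307 probes, 29224 were kept that the scanner software marked as well above background in both TLR2.CD40 samples or in both unstimulated samples. Of these 62 lacked a value, and 29162 were tested with limma 3.58.1 (R 4.3.3) over all 12 arrays, with 1 coefficient per condition, moderated variances and Benjamini-Hochberg adjustment over all probes. The threshold was an adjusted p under 0.05. A gene is represented by its brightest tested probe. For a probe below background on both arrays of a condition, or saturated on both, only a bound on the fold is given. Named genes were the 12 highest, the 12 lowest, the 6 highest bounds each way, and list members; not all of these are printed. Members and lists were chosen with earlier results of these data known, and the liver list after values were seen. The fit was tested on simulated data. Of 40628 coding probes, 28909 matched RefSeq by accession. The number of arrays limits the precision. Same-numbered arrays did not deviate together (r = 0.0791), so no pairing was used. Alternatives were other scalings, background corrections and filters, slide or replicate number as a block, the 4 arrays alone, no moderation, a 2-fold minimum and leaving out each array. The doses of the stimuli were not used here, and the value of 1 list member is not reported here.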

Additional observations from a re-analysis of the deposited data

How the results depend on the processing

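Counts of changed probes depended on the processing, and so did the share of them that was higher. Causes were not tested unless given. Against unstimulated cells 6140 probes passed, 1689 with a 2-fold minimum (59.8% of them higher, against 46.5%), 528 under median centring, which moved the median of all probes by -0.109, 2459 with no filter on dim probes, 15279 with slide as a block, 13965 with the 4 arrays alone, and 2341 to 2669 when 1 array was left out. Against Pam2CSK4 the same settings gave 1008, 303 (50.5% higher, against 67.8%), 927 and 10546 (55.1%) for 3463, with 932 to 2035 when 1 array was left out, and against anti-CD40 426 (39.0%, against 50.4%), 302 (64.2%), 351 (31.9%) and 5205 for 944, with 294 to 1364 (32.5 to 46.6%) when 1 array was left out. With replicate number as a block, although the numbers did not pair the samples, the 3 counts were 9070, 5736 and 2253 (62.5% higher). Quantile normalization, normexp, the authors' table, other filters and no moderation gave 5739 to 6726 in the first comparison. So did leaving out the probes of the liver list, a choice made after seeing the data. Of 199 named genes called, 99 held without each of the 4 arrays in turn and 50 under median centring. Median log2 fold changes of the lists shifted under median centring to 0.17 (receptors), 0.59 (NF-kB), -0.02 (BCL2 family), 0.25 (cytokines), -0.42 (trafficking), -0.25 (B cell receptor), -0.29 (fate), -0.09 (immediate early), -0.04 (feedback), 0.26 (Myc), 0.88 (ribosome), -0.06 (G1), -0.26 (MCM), -0.60 (quiescence), -0.11 (glycolysis), -0.20 (cholesterol), -0.15 (MHC class II), -0.18 (chaperones) and -0.19 (interferon), so the sign of the BCL2 family, immediate early, feedback and G1 lists turned. Median centring shifts all fold changes by the same amount, so relative to the median of all genes no list can move under it. The BCL2 family, immediate early, feedback and G1 lists lie at 0.17, 0.11, 0.15 and 0.13 above that median in both settings. With normexp the list medians were 0.22 (receptors), 0.65 (NF-kB), 0.29 (cytokines), -0.23 (trafficking), 0.02 (fate), -0.01 (immediate early), 0.29 (Myc), 0.91 (ribosome), -0.54 (quiescence) and -0.09 (MHC class II). With quantile normalization they were 0.73 (NF-kB), -0.27 (trafficking), -0.02 (immediate early), 0.38 (Myc) and -0.45 (quiescence), and with a filter over all 4 arrays 0.23 (receptors) and -0.34 (trafficking). When 1 array was left out the medians ran from 0.29 to 0.36 (cytokines), -0.23 to -0.04 (fate), -0.02 to 0.06 (immediate early), 0.30 to 0.35 (Myc), -0.22 to -0.13 (MCM), -0.55 to -0.46 (quiescence) and -0.08 to -0.03 (MHC class II). With 2 arrays a condition and saturated probes among the brightest, small differences and those of the brightest genes are not resolved.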
